A study of Rattus norvegicus with 134 samples.

Results

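Small RNA libraries of 12 rat hearts, taken 48 h after heat stress or at the matched time, were compared out of 77 libraries of 3 organs in the deposited table. The 12 were chosen by their labels alone: heart as the tissue, 48 as the time, and heat (6 rats, numbers 304 to 309) or control (6 rats, numbers 311, 312, 314, 315, 317 and 318) as the treatment. The heat-stressed rats were heated in an incubator at 37.0 °C until the core temperature reached 41.8 °C, a point called Tc,max, and then recovered at 22.0 °C. The control rats by the labels stayed in normal housing and never entered the incubator, whereas the study's methods place them in an incubator at room temperature. All were rats of 1 inbred laboratory strain by those methods, unmodified, and no age is used here. Heat-stressed rats with cardiac lesions at this time formed a group of their own in the study, but the labels do not say which rats these were and the histopathology table carries no rat numbers, so that all 6 form 1 group here and values are given per rat.

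MicroRNA (miRNA) are short RNA that guide Argonaute proteins to messenger RNA, mainly by pairing of the seed, bases 2 to 8, and lower the output of the paired messages. Heart muscle is known to hold a small set of them at high levels, among them miR-1, miR-133, miR-208 and miR-499. The last pair lie within genes of myosin heavy chains. In the control hearts here their levels were uneven. miR-133a averaged 8.96% of reads, miR-208a 0.160%, miR-499-5p 0.122% and miR-1-3p 0.0707%. In rodent hearts miR-21 is known to rise after injury, largely in fibroblasts. miR-146a is induced by NF-kB and dampens innate immune signalling, and miR-221 and miR-222 act in vessel walls on the cell cycle.

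The results below turn on a few miRNA, whose mature sequences are shown because their seeds tell which names act on shared targets and which do not. They come from RefSeq (rat build GRCr8), where 108 of the 185 names of the table matched a mature miRNA. The seed is in capitals. The miRNA that lead the list of higher names are shown first, with the relative miR-146a-5p.
miR-21-5p: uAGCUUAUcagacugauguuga
miR-21-3p: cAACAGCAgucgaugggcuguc
miR-146b-5p: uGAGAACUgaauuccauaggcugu
miR-146a-5p: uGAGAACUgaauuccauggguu
miR-221-3p: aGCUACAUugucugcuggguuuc
miR-222-3p: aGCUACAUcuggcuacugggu
miR-146a-5p and miR-146b-5p share the seed GAGAACU, and miR-221-3p and miR-222-3p share GCUACAU. The arms of miR-21 have different seeds. Mir21 lies on the minus strand of chromosome 10, with miR-21-5p at chr10:71902653-71902674. Mir146b lies on the plus strand of chromosome 1, with miR-146b-5p at chr1:255144874-255144897. Mir222 and Mir221 lie close together on the plus strand of chromosome X, with miR-222-3p at chrX:6022682-6022702 and miR-221-3p at chrX:6023246-6023268.

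The muscle miRNA are shown because 1 heat library nearly lacked them, and the epithelial miRNA because the same library was rich in them.
miR-1-3p: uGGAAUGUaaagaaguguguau
miR-133a-3p: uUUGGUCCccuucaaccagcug
miR-133b-3p: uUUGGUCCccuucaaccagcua
miR-208a-3p: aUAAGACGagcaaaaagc
miR-499-5p: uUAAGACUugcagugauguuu
miR-375-3p: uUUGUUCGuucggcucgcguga
miR-34b-5p: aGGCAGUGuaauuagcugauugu
miR-34c-5p: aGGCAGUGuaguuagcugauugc
miR-141-3p: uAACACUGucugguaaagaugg
miR-133a-3p and miR-133b-3p share the seed UUGGUCC, and miR-34b-5p and miR-34c-5p share GGCAGUG. The seeds of miR-208a-3p and miR-499-5p, UAAGACG and UAAGACU, differ in the last base. miR-429, miR-320 and miR-193-3p are named only.

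The deposited values are log2(CPM + 1), where CPM is the read count scaled to a common library size, and a level below is this value. Fold changes are on the same scale, which understates those of names with few reads. Total reads, worked out from the value that 1 read takes in a library, were 126279 to 587244 in heat hearts (median 473183) and 408370 to 838657 in control hearts (median 556519). The shallowest libraries were those of heat rats 308 (126279 reads) and 307 (194846 reads). A name with 3 reads stood at 2.19 to 4.63 in these libraries. The table holds 185 names, 105 of a mature arm and 80 without one, and the names without one are no sums over arms. Among the 12 hearts, 163 names were tested.

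The heart of heat rat 307 went against its label in its muscle miRNA. The 10 names of the cardiac and skeletal muscle list summed to 0.0575% of its reads, against 5.18 to 21.3% in the other 5 heat hearts and 15.8 to 22.8% in control hearts. miR-133a, which represses smooth muscle genes in heart muscle, stood at 7.83 in rat 307, at 14.44 to 16.53 in the other heat hearts and at 16.08 to 16.65 in control hearts. miR-208b was listed at 0 in rat 307, where 3 reads would stand at 4.04, and miR-208a and miR-499-5p had 2 reads each. All 10 muscle names were below every other heart at 48 h in this library, where 65 of all 163 names tested were below every control heart. In these bulk libraries fewer cells of a type and less RNA per cell cannot be told apart. Which tissues this sample held was not tested.

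The same library was rich in epithelial miRNA. The 15 names of the epithelium list summed to 2.38% of reads in rat 307, against 0.0331 to 0.0538% in the other heat hearts and 0.0299 to 0.0451% in control hearts, and 10 of the 15 were above every other heart. Above every control heart were 13 of the 15, beside 64 of all 163 names tested. Only 7 of the 15 had enough reads to be among those tested, so that the shares are over unlike sets of names. The miR-203 names were not among the 10. miR-203a-3p was below every other heart, at 4.04 in rat 307, which is the level of only 3 reads in that library. It stood at 4.39 to 5.88 in the other heat hearts and 4.36 to 5.07 in control hearts. miR-375-3p, known from islet and other secretory epithelial cells, stood at 12.82 in rat 307 on 1405 reads, at 0 to 4.26 in the other heat hearts and at 0 to 5.72 in control hearts. miR-34c-5p, abundant in ciliated epithelium, stood at 12.55 in rat 307, at 6.09 to 7.69 in the other heat hearts and at 7.03 to 7.60 in control hearts. miR-429, of the miR-200 family that keeps cells epithelial by repressing Zeb factors, stood at 11.79 in rat 307, at 3.25 to 5.19 in the other heat hearts and at 2.18 to 4.83 in control hearts. miR-192-5p, the leading kidney and gut epithelial name, stood at 8.89 in rat 307, within the 8.51 to 9.51 of control hearts, and miR-122-5p, of hepatocytes, stood at 2.62 on 1 read.

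The summed endothelial and let-7 names were also high in rat 307. The 4 endothelial names, all of miR-126, summed to 4.29% of its reads, against 1.46 to 2.33% in the other heat hearts and 0.929 to 2.02% in control hearts. miR-126a-5p went the other way, at 10.66 in rat 307, against 12.07 to 13.92 in the other heat hearts and 10.46 to 13.58 in control hearts. The 16 let-7 names summed to 15.0%, against 4.28 to 4.82% in the other heat hearts and 3.49 to 6.15% in control hearts. The red blood cell list, of which miR-451 alone was measured, was 0.00719% in rat 307 and 0.00416 to 0.0122% in control hearts. Over the 163 names tested, the median absolute distance of this library from the control heart mean was 1.65 on the log2 scale, against 0.142 to 0.700 for the other heat hearts and 0.189 to 0.449 for each control heart from the mean of the others. This library was above every control heart for 64 of the 163 names and below for 65. Its median distance was 1.72 from the mean of 5 control kidneys at 48 h and 1.77 from that of 6 control livers at Tc,max. The other hearts at 48 h lay nearer to both, at 0.651 to 1.21 from the kidneys and 1.24 to 1.45 from the livers. The part of these markers in any result was not tested, and each result is given with and without rat 307.

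**Figure D1:**
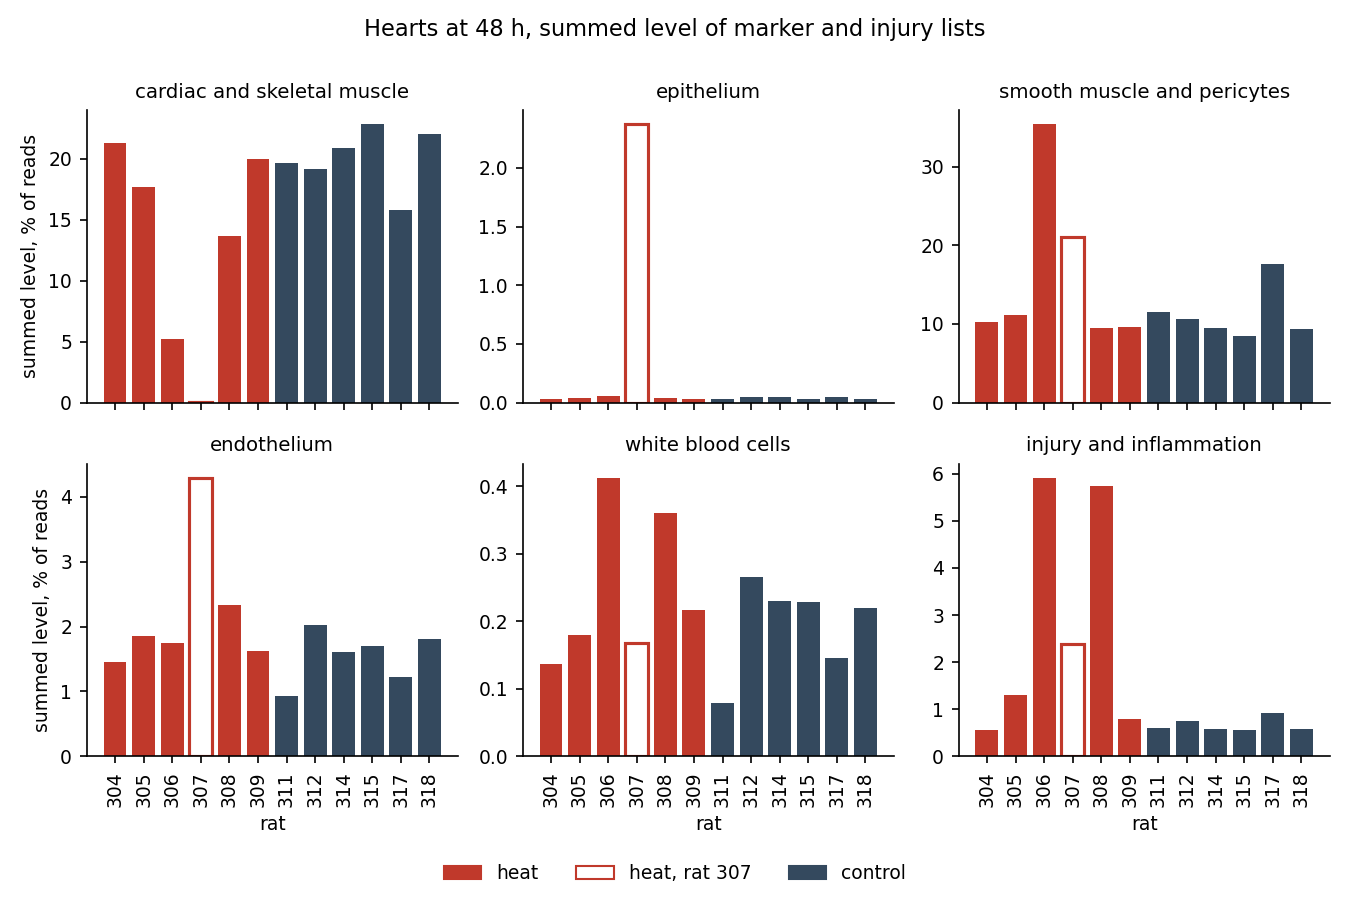
Bars give the summed level of 6 lists of miRNA as a percent of reads, 1 bar per rat, with the 6 heat hearts (red, rat 307 outlined) left of the 6 control hearts (dark). Rat 307 stands at 0.0575% in the muscle list and 2.38% in the epithelium list, and rats 306 and 308 stand highest in the injury list at 5.92% and 5.74%.

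The heat heart of rat 306 departed from the controls in the same list, but less. Its muscle names summed to 5.18% of reads and all 10 were below every control, beside 36 of all 163 names tested. In rat 308, at 13.7%, 6 of 10 were, beside 17 of the 163 names. In rats 304, 305 and 309 none of the 10 was below every control. The smooth muscle and pericyte list, of miR-143 and miR-145, summed to 35.4% in rat 306 and 21.1% in rat 307, against 9.46 to 11.2% in the other 4 heat hearts and 8.44 to 17.6% in control hearts.

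Of 163 names, 2 passed the test between heat and control hearts at 48 h, which is 1.23%, and both were higher in heat-stressed rats. They were miR-21 and miR-146b-5p, and the same 2 names (again 1.23%) passed without rat 307. The test was limma's treat against a log2 fold change of 0.32, the study's cutoff, with Benjamini-Hochberg adjustment over all names and an FDR limit of 0.05. Before adjustment, 18 names with all libraries (11% of names) and 11 without rat 307 (6.75%) had p under 0.05. By the mean alone, 105 names (64.4%) were higher and 58 (35.6%) lower. The median log2 fold change over all names, always heat minus control here, was 0.158 with all libraries and 0.167 without rat 307, and 0.069 and 0.039 after median-ratio (RLE) scaling. Without rat 307, 33.7% of names were lower and 66.3% higher as deposited, and the higher share was 54% after RLE scaling and 52.8% after trimmed-mean scaling.

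**Figure D2:**
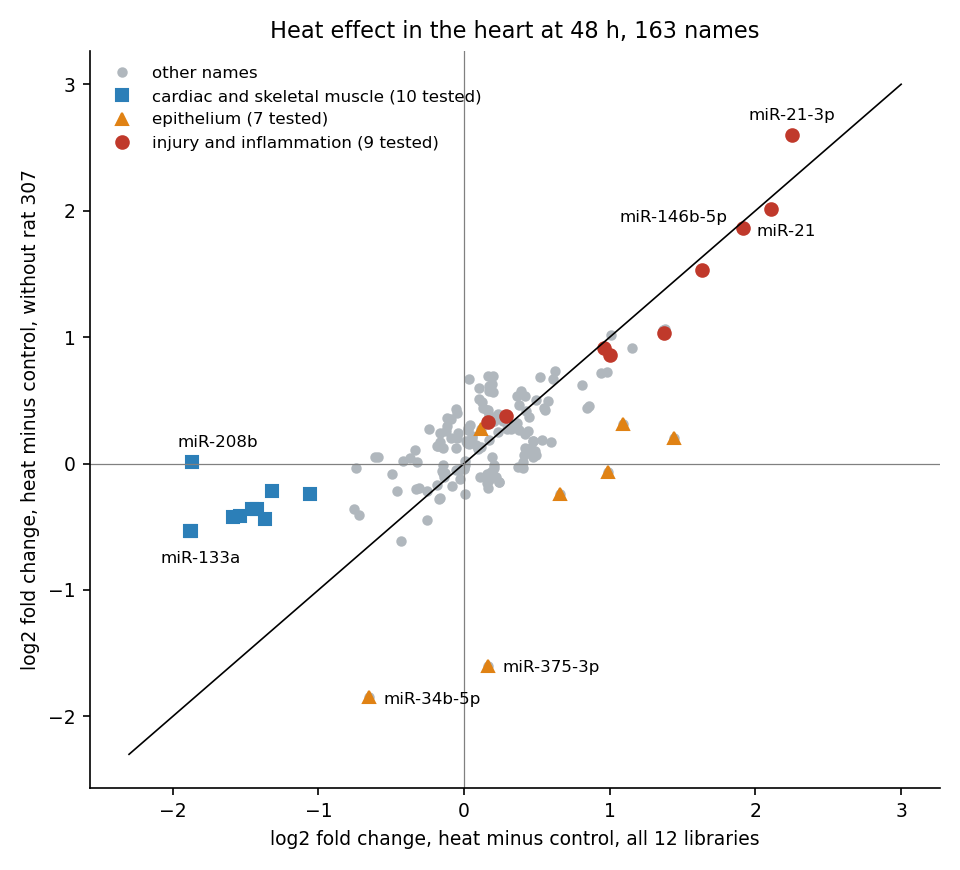
Each point is 1 of the 163 names tested, with its log2 fold change (heat minus control) from all 12 libraries on the x axis and without rat 307 on the y axis, and the line marks equal values. miR-21 (2.11 and 2.02) and miR-146b-5p (1.92 and 1.86) lie close to the line, muscle names such as miR-133a (-1.88 and -0.53) lie left of it and miR-375-3p (0.16 and -1.60) lies below it.

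miR-21 was higher in the hearts of heat-stressed rats by 2.11 on the log2 scale (standard error [SE] 0.44, limma adjusted p = 0.0184), or 2.02 without rat 307 (SE 0.46, adjusted p = 0.0442). As a share of reads it was 0.206, 0.595, 3.56, 1.26, 3.91 and 0.290% in heat rats 304 to 309. In the 6 controls it was 0.183 to 0.285%. Rats 306 and 308 were far above the controls, rats 307 and 305 less so, rat 309 was just above them and rat 304 was among them. A two-sided exact permutation test gave p = 0.0130 with all libraries (n = 6 and 6) and also without rat 307, or 0.537 and 0.529 after adjustment over all names. The adjusted p from limma ranged from 0.00026 to 0.731 over the alternatives with all libraries. The call was lost without rat 306 or rat 308, with library weights and with the 48 h hearts fitted alone. Without rat 307 it was also lost with rat 305 or any 1 control left out, with no filter and with voom (adjusted p of 0.0515 to 0.116). With library weights the log2 fold change was 1.12, or 1.08 without rat 307.

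miR-146b-5p was higher by 1.92 (SE 0.41, limma adjusted p = 0.0184), or 1.86 without rat 307 (SE 0.43, adjusted p = 0.0442). Its levels were 7.97, 10.12, 11.94, 10.19, 10.87 and 8.47 in heat rats 304 to 309, and 7.37, 8.06, 8.37, 8.37, 8.08 and 7.82 in control rats 311, 312, 314, 315, 317 and 318. The groups overlapped by rat 304 alone, and rat 309 stood just above the highest control. A two-sided exact permutation test gave p = 0.0173 with all libraries and without rat 307, or 0.537 and 0.565 after adjustment over all names. The adjusted p from limma ranged from 0.00026 to 1 over the alternatives with all libraries. The call was lost without rat 306, rat 308 or control rat 311, with library weights and with the 48 h hearts alone. Without rat 307 it was also lost with rat 305 or any 1 control left out, with no filter, mature arms alone, voom and pooled controls (adjusted p of 0.0515 to 0.145). Library weights gave a log2 fold change of 1.0, or 0.96 without rat 307.

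Its relative miR-146a-5p, with the same seed, had a log2 fold change of 0.17 (SE 0.27, limma adjusted p = 0.999), or 0.33 without rat 307. It averaged 7.75 ± 0.499 in heat hearts and 7.58 ± 0.551 in control hearts (SD, n = 6 each). Whether the relatives differ from each other in their response was not tested.

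The injury and inflammation list held 10 names, of which 9 were tested. The means of all 9 were higher in heat hearts, with and without rat 307, beside 64.4 and 66.3% of the means of all names. In the list 2 of 9 passed, miR-21 and miR-146b-5p, beside 1.23% of all names. The median log2 fold change of the 9 was 1.37 with all libraries and 1.03 without rat 307, beside 0.158 and 0.167 over all names. The list was chosen with earlier results of these data known, so that its direction is no independent evidence. The list summed to 0.561, 1.29, 5.92, 2.39, 5.74 and 0.797% of reads in heat rats 304 to 309, against 0.554 to 0.913% in control hearts. The white blood cell list, of miR-142, miR-146a and miR-150, was also highest in rats 306 (0.413%) and 308 (0.360%), against 0.137 to 0.216% in the other 4 heat hearts and 0.0791 to 0.265% in control hearts. The stromal list of miR-10b and miR-199a stood at 0.374, 0.961, 1.79, 0.563, 0.706 and 0.377% in heat rats 304 to 309, against 0.325 to 0.916% in control hearts, so that rats 305 and 306 alone were above every control. The part of these cell type markers in the injury names was not tested.

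The mean of miR-222 was higher by 1.63 (SE 0.43, limma adjusted p = 0.120), or 1.53 without rat 307 (adjusted p = 0.222). Its levels were 6.13, 7.08, 9.76, 8.32, 8.99 and 6.60 in heat rats 304 to 309 and 5.49 to 6.64 in control hearts. Rats 304 and 309 were among the controls and the other 4 above them. miR-221-3p, with the same seed as miR-222-3p and a gene beside it, had a log2 fold change of 1.37 (SE 0.37, adjusted p = 0.145), or 1.03 without rat 307 (adjusted p = 0.628). It was highest in rats 307, 306 and 308, at 10.27, 9.61 and 9.36, against 6.77 to 7.90 in control hearts.

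The arms of miR-21 did not pass. miR-21-3p was higher on average by 2.25 on the log2 scale (SE 0.72, limma adjusted p = 0.209), and without rat 307 by 6.06-fold on the linear scale (adjusted p = 0.112). Its levels were 3.34, 6.29, 9.09, 4.43, 8.87 and 5.04 in heat rats 304 to 309 and 3.03 to 4.75 in control hearts, near the level of a few reads. miR-21-5p had a log2 fold change of 0.96 (SE 0.28, adjusted p = 0.271), or 0.91 without rat 307. It stood at 13.95 in rat 306 and 13.79 in rat 308, against 11.44 to 12.33 in control hearts. The name miR-21 was above miR-21-5p in heat rats 305 (12.54 and 12.26), 306 (15.12 and 13.95), 307 (13.62 and 12.99) and 308 (15.26 and 13.79), and below it in heat rats 304 and 309 and in each of the 6 control hearts.

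**Figure D3:**
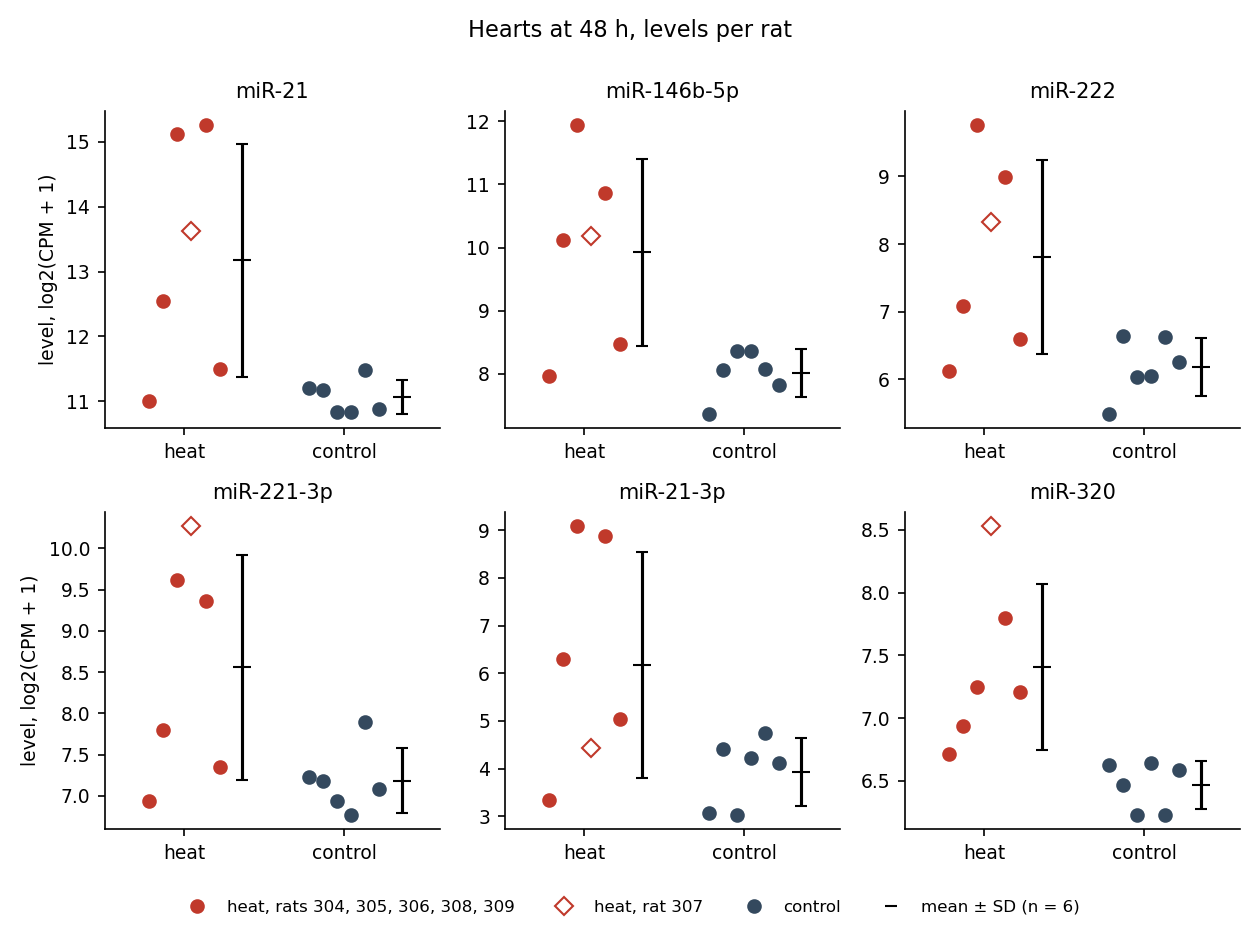
Points are the levels, log2(CPM + 1), of 6 miRNA in single hearts at 48 h, with heat (red, rat 307 as an open diamond) left of control (dark), and bars are the mean ± SD of 6 rats. Rats 306 and 308 lie above every control in all 6 panels, and miR-320 is the name without overlap, at 6.71 to 8.53 in heat hearts and 6.23 to 6.64 in control hearts.

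miR-320 was the only name of 163 (0.613%) whose level in every heat heart was above every control heart, and it was also the only one without rat 307 (again 0.613%). No name was below every control in all heat hearts. Its levels were 6.71, 6.94, 7.25, 8.53, 7.80 and 7.21 in heat rats 304 to 309, and 6.63, 6.47, 6.23, 6.64, 6.23 and 6.59 in the controls in order of rat number. Rat 304 lay just above the highest control and rat 307 highest. In control hearts at other times miR-320 stood at 6.65 to 8.41 (Tc,max, n = 5) and 5.88 to 7.10 (24 h, n = 6). The lack of overlap thus holds against the 48 h controls alone. The log2 fold change of miR-320 was 0.94 (SE 0.28, limma adjusted p = 0.293), or 0.72 without rat 307 (adjusted p = 0.938). Against the pooled controls of all times it was 0.69, or 0.47 without rat 307. A two-sided exact permutation test gave p = 0.0022 in each case, the smallest that these numbers of rats allow, and 0.353 after adjustment over all names. It passed limma without the fold-change cutoff when rat 307 was kept (adjusted p = 0.0481, with a range of 0.0481 to 1 over the alternatives). miR-320-3p, its named arm, overlapped between the groups, at 6.85 to 9.69 in heat hearts and 6.57 to 7.56 in control hearts. It averaged 7.54 in heat hearts, 7.11 without rat 307 and 6.94 in control hearts. Both names are in the chaperone-linked list with miR-24, miR-27 and miR-378a. Of the 9 names of that list 0 passed, with a median log2 fold change of 0.056, or 0.27 without rat 307, when all 9 means were higher, beside 66.3% of all names.

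miR-219a-2 and miR-219b had log2 fold changes of 1.38 and 1.37 (limma adjusted p = 0.214 for each), or 1.06 and 1.05 without rat 307 (adjusted p = 0.707). Their levels differed by at most 0.04 in the 12 hearts, so that they may count the same reads and stand for 1 measurement. In RefSeq the locus holds mature miRNA on both strands of chromosome 3, shown here because their coordinates overlap.
miR-219a-2-3p: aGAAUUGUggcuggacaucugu
miR-219b: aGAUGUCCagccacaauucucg
miR-219a-2-3p is annotated at chr3:33516517-33516538 on the minus strand and miR-219b at chr3:33516519-33516540 on the plus strand. miR-219b stood at 6.55, 7.64, 8.42, 9.72, 7.95 and 8.62 in heat rats 304 to 309 and at 6.30 to 7.89 in control hearts. Rats 306, 307, 308 and 309 were above every control, and control rat 318, at 7.89, was above heat rats 304 and 305.

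miR-92a-3p, of the miR-17-92 cluster that promotes proliferation, was at 6.61, 6.41, 7.49, 8.01, 7.85 and 5.92 in heat rats 304 to 309 and at 5.86 to 6.53 in control hearts. Of the 5 tested names of that cluster and its paralogues 0 passed, all 5 means were higher, beside 64.4% of all names, and the median log2 fold change was 0.553, or 0.598 without rat 307. miR-378a and miR-3557, which differed by at most 0.058 in the hearts other than that of rat 307, had log2 fold changes of 0.17 and 0.20 with all libraries. Without rat 307 they were 0.69 for each (adjusted p = 0.707 for each), and all 5 heat hearts were above the control mean. In that rat miR-378a stood at 4.99, against 7.65 to 9.03 in the other heat hearts and 7.20 to 7.71 in control hearts. The arm miR-378a-3p, at higher levels, averaged 13.60 in the heat hearts without rat 307 and 13.58 in control hearts, and stood at 10.96 in rat 307.

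With all libraries the names lowest against control were muscle miRNA and miR-3546, and without rat 307 they were miR-34b-5p (-1.85) and miR-375-3p (-1.60), and none passed. In the first case the 10 tested names of the muscle list all had lower means in heat hearts, beside 35.6% of all names, 0 of 10 passed (0% of 163 names passed as lower), and the median log2 fold change was -1.50. Without rat 307 it was -0.387, with 9 means lower and 1 higher, beside 33.7% lower of all names. miR-133a had a log2 fold change of -1.88 (SE 0.79, limma adjusted p = 0.425), or -0.53 without rat 307 (SE 0.25, adjusted p = 0.998). As a share of reads miR-133a was 9.49, 7.74, 2.22, 0.0226, 6.02 and 8.88% in heat rats 304 to 309, against 6.92 to 10.3% in control hearts. miR-133c differed from it by at most 0.064 in the 12 hearts and may count the same reads.

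miR-208a had a log2 fold change of -1.54, or -0.42 without rat 307, and miR-3546 had nearly equal levels (at most 0.014 apart). Apart from rat 307 its levels were 10.75, 10.55, 8.97, 10.01 and 10.78 in heat rats 304, 305, 306, 308 and 309, against 10.22 to 10.79 in control hearts. Rats 306 and 308 were below every control and the other 3 among them. miR-208b, which accompanies the slow myosin gene, had a log2 fold change of -1.87 with all libraries and 0.01 without rat 307 (SE 0.31). miR-1-3p, the defining miRNA of striated muscle, had -1.32 and -0.22. For miR-490 all 6 heat hearts were below the control mean, at 4.04 in rat 307 and 8.33 to 9.15 in the others, against 8.86 to 9.32 in control hearts, and its log2 fold change was -1.06 (adjusted p = 0.519) or -0.24 without rat 307.

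The energy metabolism list, of miR-22, the miR-30 family and miR-378a, held the most abundant miRNA of the heart. miR-22-3p took 30.4, 25.0, 14.2, 13.9, 24.6 and 28.3% of reads in heat rats 304 to 309, against 24.3 to 29.6% in control hearts. Rats 306 and 307 were below every control. miR-30e had a log2 fold change of -0.72 (SE 0.26, limma adjusted p = 0.486), or -0.41 without rat 307, and miR-30a had -0.03, or -0.13. miR-143-3p, of smooth muscle, stood at 18.41 in rat 306 and 17.66 in rat 307, at 16.50 to 16.75 in the other heat hearts and at 16.34 to 17.40 in control hearts. Of the 17 names of the list 0 passed in either direction. The median log2 fold change was -0.313, or -0.104 without rat 307.

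The remaining lists gave no call. For the 7 tested epithelial names the median log2 fold change was 0.661 with all libraries and -0.066 without rat 307, when 3 means were higher and 4 lower. miR-34b-5p had a log2 fold change of -0.65, or -1.85 without rat 307 (SE 0.78, limma adjusted p = 0.707). It was listed at 0 in heat rats 305 and 308 and at 3.34, 4.03 and 4.34 in rats 304, 306 and 309, against 3.30 to 5.29 in control hearts, where 3 reads stand at 2.19 to 3.06. In rat 305 they stand at 2.86, and in the shallow library of rat 308 at 4.63, within the control range. miR-375-3p was likewise at 0 in heat rats 308 and 309 and in control rat 318. miR-127-3p had a log2 fold change of -0.43, or -0.62 without rat 307, and miR-3596d had -0.25, or -0.45.

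Among the marker lists of other cells, the 4 endothelial names had a median of 0.24 in log2 fold change, or -0.068 without rat 307, and the 4 of smooth muscle and pericytes 0.365, or 0.28. The 3 stromal names had 0.36, or 0.503, and the 6 of white blood cells 0.23, or 0.37. miR-451 of red blood cells had 0.52, or 0.69, and the 3 kidney and gut epithelial names 0.034, or 0.156. No hepatocyte name was tested. In the families, the 16 let-7 names had 0.193, or -0.026 without rat 307, the 3 miR-29 names, which act on collagen messages, -0.13, or -0.078, and the 7 miR-181 names 0.028, or 0.16. In each of these lists 0 names passed in either direction, beside 1.23% of all names.

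The spread was wider among heat-stressed rats. The SD of a name was larger in heat than in control hearts for 148 of 163 names with all libraries and for 106 of 163 without rat 307. The median SD was 0.860 in heat hearts with all libraries, 0.505 without rat 307 and 0.345 in control hearts. Heat rat 306 was above every control for 74 of 163 names and below for 36, rat 308 for 70 and 17, rat 307 for 64 and 65, and rat 305 for 31 and 9. For rats 304 and 309 the numbers were 10 and 14, and 13 and 4. Among the controls, rat 311 was over 1 log2 unit below the mean of the other controls for 45 names and above for 0. limma took 1 spread per name over all 35 hearts, so that its standard errors do not follow this difference in spread. With the 48 h hearts fitted alone limma called 0 names, and 7 were under 0.05 before adjustment.

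The heat effect at 48 h was set against that at the earlier times in the same fit. At 24 h after heating (6 heat and 6 control hearts) and at Tc,max (6 and 5) 0 of 163 names passed (0%), with 0 names at 24 h and 3 (1.84%) at Tc,max under 0.05 before adjustment in limma. The effect at 48 h minus that at 24 h passed for 0 names (0%), with 4 (2.45%) under 0.05 before adjustment and 0 past the test in any alternative. For miR-21 that difference was 1.66 (SE 0.63, limma adjusted p = 0.911). miR-21 averaged 11.75 ± 0.51 in heat hearts and 11.30 ± 0.262 in control hearts at 24 h (SD, n = 6 each), and 10.96 ± 0.129 (n = 6) and 11.08 ± 0.171 (n = 5) at Tc,max.

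The effect at 48 h minus that at Tc,max passed for 2 names (1.23%), miR-219a-2 and miR-219b, which may be 1 measurement. For miR-219b it was 2.602 (SE 0.61, limma adjusted p = 0.0299), or 2.29 without rat 307 (adjusted p = 0.0665), when 0 names (0%) passed and 14 (8.59%) were under 0.05 before adjustment. At Tc,max miR-219b averaged 7.03 ± 0.71 in heat hearts (n = 6) and 8.27 ± 1.10 in control hearts (SD, n = 5), where 1 control stood at 9.99 and the others from 7.03. At 24 h it averaged 6.91 ± 0.216 in heat hearts and 7.24 ± 0.511 in control hearts, and at 48 h 8.15 ± 1.06 and 6.78 ± 0.57 (SD, n = 6 each). The call was lost after RLE or trimmed-mean scaling, with voom or library weights, and without heat rat 306 or control rat 311, 312, 315 or 317, besides rat 307. Over all names the median of this difference was 0.334, with 77.3% higher, or 0.085 with 58.9% higher after RLE scaling. For miR-146b-5p the difference was 2.32 (adjusted p = 0.0529), or 2.27 without rat 307 (adjusted p = 0.0843), and for miR-320 it was 1.53 (adjusted p = 0.0994). The control hearts differed between these times as well. miR-146b-5p averaged 9.01 in controls at Tc,max (8.72 to 9.42, n = 5) and 8.01 at 48 h (7.37 to 8.37, n = 6). In heat hearts it averaged 8.60 and 9.93 (n = 6 each). For miR-320 the control means were 7.24 and 6.47, and the heat means 6.65 and 7.41.

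**Figure D4:**
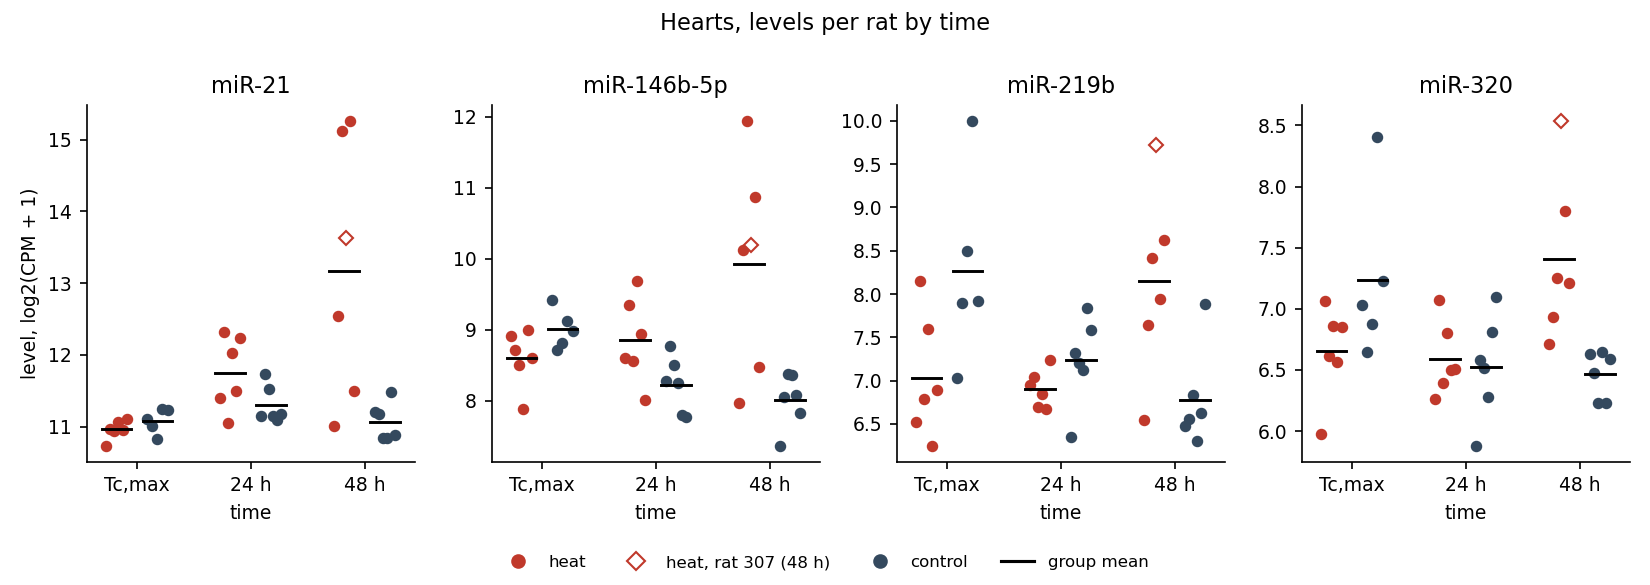
Points are the levels, log2(CPM + 1), of 4 miRNA in single hearts at Tc,max, 24 h and 48 h, heat (red, rat 307 at 48 h as an open diamond) left of control (dark), with lines at the group means. For miR-219b the heat mean is 7.03 beside a control mean of 8.27 at Tc,max, and 8.15 beside 6.78 at 48 h.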

How the data were processed

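Hearts were homogenised in a freezer mill, and small RNA was isolated with the miRNeasy kit and sequenced from TruSeq libraries. The authors trimmed reads with cutadapt 2.6, mapped them to rat miRBase hairpins and mature sequences without mismatch, and deposited log2 values, log2(CPM + 1), for 185 names. The step of 1 read gave whole reads for 513 of 513 low values within 0.05 of a read in these 12 libraries, and served for depth and the filter.

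limma 3.58.1 (R 4.3.3) took the place of the planned edgeR test, since the values are not counts. All 35 hearts were fitted as 6 groups (34 without rat 307) with treat at a fold change of 1.25, for names with at least 5 reads in every library of at least 1 group. Exact two-sided permutation tests compared single means. Rats are the replicates, and intervals from reads were not used. Named miRNA were, by rule, those past the test, the 10 with the smallest p in each direction with and without rat 307, the most abundant members of 16 lists, and the 5 most abundant names. The members and lists were chosen with earlier results of these data known. Alternatives were other scalings, filters, pseudocounts, voom, library weights, arms alone, the 48 h hearts alone, pooled controls, the permutation test and each library left out. Python 3.11.15 was used.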

Additional observations from a re-analysis of the deposited data

Results flagged for a closer look

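Among the 29 named and most abundant miRNA, single hearts stood far from the other 5 of their group, by the gap to the nearest heart as a share of the group's range (limit 0.625 for 6 hearts). Chance flags about 1 in 20 groups, and nearly equal names repeat 1 measurement.

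Heat rat 307 was lowest for 10 names. The shares were 0.759 for miR-133a, 0.760 for miR-133c, 0.756 for miR-133a-3p, 0.752 for miR-208a and miR-3546, 0.770 for miR-133b-3p, 0.739 for miR-499-5p and 0.840 for miR-490, all muscle names or nearly equal to one. Rat 307 was known for its low muscle miRNA before these shares were computed, so that they describe it and the chance rate does not bear on them. They were 0.640 for miR-3557 and 0.659 for miR-378a. The same rat was highest for miR-375-3p, with a share of 0.667. Its kidney library differed from those of 5 control kidneys, with miR-194-5p at 4.87, against 10.01 to 10.68. miR-182 stood there at 7.44, against 12.53 to 12.95, miR-192-5p at 12.32, against 15.35 to 16.22, and miR-141-3p at 5.47, against 8.96 to 10.4. Other epithelial names were above every control kidney, miR-429 at 11.93 (10.87 to 11.51) and miR-200b-3p at 11.87 (10.69 to 11.39), as was miR-10a-5p at 17.92 (17.38 to 17.64), and miR-375-3p was within their range at 9.34.

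Heat rat 306 was lowest for miR-30a, at 14.56, with a share of 0.719. Control rat 317 was lowest for miR-208a (0.667) and miR-3546 (0.671), and control rat 318 was highest for miR-219a-2 (0.678) and miR-219b (0.662).

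The heat effect differed between 48 h and Tc,max for miR-219a-2 (2.615) and miR-219b (2.602, adjusted p = 0.0299 for each from limma) with all libraries, and did not pass without rat 307.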

How the results depend on the processing

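The 2 names past the test with all libraries stayed 2, miR-21 and miR-146b-5p, with RLE or trimmed-mean scaling, no filter, log2(CPM + 5) and voom. The count was 10 without the fold-change cutoff, 4 with pooled controls, 1 with mature arms alone, and 0 with library weights, with the 48 h hearts alone or with the permutation test (13 at an unadjusted p under 0.05). Leaving out 1 library gave 0 (rat 306 or 308) to 9 (rat 304), with 1 without control rat 311 and 4 without rat 309. Without rat 307 the count of 2 became 1 with pooled controls and 0 with no filter, voom, library weights, arms alone, the 48 h hearts alone or the permutation test, and leaving out a further library gave 0 to 6, with 0 without any 1 of the 6 controls or without rat 305, 306 or 308, 3 without rat 309 and 6 without rat 304. For the effect at 48 h minus Tc,max, the count of 2 became 0 with RLE or trimmed-mean scaling, voom, library weights or arms alone, 4 without the cutoff, and 0 to 11 with 1 library left out (11 without rat 304, 4 without rat 309, and 0 without heat rat 306 or 307 or control rat 311, 312, 315 or 317); without rat 307 it was 0, then 3 without the cutoff and 0 to 9 with a further library left out. The effect at 48 h minus 24 h gave 0 throughout. Directions turned in the fits with 1 library left out, which gave -0.08 (without rat 308) to 0.69 (without rat 307) for miR-3557, -0.11 to 0.69 for miR-378a (the same rats), -1.85 (without rat 307) to 0.06 (without rat 305 or 308) for miR-34b-5p, and -1.60 (without rat 307) to 0.96 (without rat 308) for miR-375-3p, which was -0.60 without control rat 318, -0.03 with voom and -1.46 with library weights. Without rat 307, miR-499 was -0.62 (without rat 304 too) to 0.01 (without rat 306 too). For the others of the 26 miRNA named by their p, no alternative turned the direction. Names given as list members or for their abundance were not followed over the alternatives. Of these, miR-208b turned without rat 307. Depth limits the low names: miR-21-3p, miR-34b-5p and miR-375-3p rest on few reads in most hearts. The causes were not tested. No paired analysis was possible because heat and control hearts come from different rats with different numbers.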
